A study of Homo sapiens with 6 samples.

Results

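The miR-99b, let-7e and miR-125a cluster is a group of 3 miRNA hairpins on chromosome 19 that are cut from a shared primary transcript. Its members were taken by name from the raw count tables, where they are listed as hsa-miR-99b-5p, hsa-miR-99b-3p, hsa-let-7e-5p, hsa-miR-125a-5p and hsa-miR-125a-3p (the species prefix is left out from here on). They make up 5 of the 2588 mature miRNAs listed. All 5 passed the filter on low counts that left 620 miRNAs to be tested. The remaining arm of the let-7e hairpin, let-7e-3p, is not a member. Its values are given where the arms of a hairpin, G content or whole clusters are compared, and in figures.

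A primary miRNA transcript folds into hairpins that Drosha and Dicer cut into a 5p and a 3p arm, and either arm can be loaded into Argonaute as a mature miRNA. The bases of the seed, near the 5′ end, direct the mature miRNA to its target mRNAs. let-7 miRNAs are differentiation-associated repressors of RAS family genes and HMGA2, the miR-99 family is known for repressing MTOR, and miR-125a-5p is known for repressing ERBB2 and LIN28A. N7-methylguanosine (m7G) is a methylated guanosine best known from the mRNA cap, and METTL1 is the methyltransferase that places it internally in tRNAs.

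The mature sequences from RefSeq (GRCh38.p14) are shown with the seed, bases 2 to 8 counted from the 5′ end, in capitals, since the members are compared below by seed and by G content.
miR-99b-5p: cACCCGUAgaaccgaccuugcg
miR-99b-3p: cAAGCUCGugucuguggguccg
let-7e-5p: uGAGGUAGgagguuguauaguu
let-7e-3p: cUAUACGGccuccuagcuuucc
miR-125a-5p: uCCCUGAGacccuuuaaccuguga
miR-125a-3p: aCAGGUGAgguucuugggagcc
No seed is shared between any of these mature miRNAs. miR-125a-5p is 24 nt long and the others are 22 nt long.

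The hairpins are shown with the mature arms in capitals, 5p first, to place both arms of each precursor.
MIR99B: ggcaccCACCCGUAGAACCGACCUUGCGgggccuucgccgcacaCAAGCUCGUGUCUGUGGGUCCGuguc
MIRLET7E: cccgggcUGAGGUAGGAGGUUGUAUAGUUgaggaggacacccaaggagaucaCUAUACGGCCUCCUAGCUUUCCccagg
MIR125A: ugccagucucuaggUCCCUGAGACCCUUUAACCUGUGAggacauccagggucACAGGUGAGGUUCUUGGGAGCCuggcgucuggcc
On the plus strand of chromosome 19 (GRCh38.p14), MIR99B lies at chr19:51692612-51692681, MIRLET7E at chr19:51692786-51692864 and MIR125A at chr19:51693254-51693339. The hairpins are separated by 104 and 389 bases, and the whole group spans 728 bases. In the GENCODE release 44 annotation all 3 lie inside SPACA6, a protein-coding gene of the same strand at chr19:51688346-51712387, in introns of the 2 SPACA6 transcripts that span them. MIR125A also overlaps an exon of 1 other SPACA6 transcript. The lncRNA SPACA6-AS1, on the opposite strand at chr19:51685363-51693456, overlaps all 3 hairpins with exonic sequence. G makes up 30% of the bases of MIR99B, 31.6% of MIRLET7E and 31.4% of MIR125A, so the hairpins were alike in G content while their arms were not.

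Small RNA was sequenced from A549, a line of human lung adenocarcinoma cells that carried a tetracycline-inducible METTL1 knock-down and had received 200 ng/ml doxycycline for 5 days. Total RNA (the input) made up the first group of 3 libraries, and the second group of 3 held heat-denatured RNA immunoprecipitated with an antibody against m7G (m7G-RIP). Both groups thus carry the knock-down, which was made by lentiviral short hairpin RNAs in puromycin-selected cells, and libraries of METTL1-proficient cells or of a control IgG were not analysed here. The labels of the m7G-RIP samples describe the culture medium of Caco-2 cells although their titles and cell line field say A549. Counts of total RNA and of m7G-RIP were deposited separately. Any difference between the groups in library preparation or sequencing therefore cannot be told apart from the immunoprecipitation. Nothing says that the replicates came from separate cultures, so p-values measure only the spread between these samples, which may be technical.

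The total RNA libraries held 9155690 to 10753443 counts and the m7G-RIP libraries 2649238 to 3106556. Counts of replicates differed by more than sampling noise (chi-square of 26.0 to 140.6 per degree of freedom). The epithelial miR-200 family was detected with 5 of 5 markers in total RNA (438.7 to 462 RPM summed, where RPM is reads scaled to the library total) and 4 of 5 in m7G-RIP (261 to 323). Most of these reads came from miR-200b-3p in every library. miR-141-3p had only 6, 0 and 3 counts in total RNA and 0 in m7G-RIP. Of 7 markers of other cell types, 4 had counts in total RNA (363 to 383 RPM summed) and 5 in m7G-RIP (275 to 487), while miR-223-3p and miR-122-5p were at 0 in every library. miR-126-3p, an endothelial marker, gave most of these reads in every library. The 2 miRNAs chosen as Caco-2 markers, miR-372-3p and miR-373-3p, were at 0 in m7G-RIP and reached 3 counts in total RNA. No Caco-2 library was analysed here, so these counts cannot settle which cells were used. METTL1 mRNA cannot be read from miRNA libraries.

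The first comparison asked how strongly the m7G antibody recovered each miRNA of the cluster relative to total RNA. Of the 5 members, 4 were enriched in m7G-RIP (both miR-125a arms, let-7e-5p and miR-99b-5p) and 1 was depleted (miR-99b-3p), by edgeR's quasi-likelihood test at an adjusted p under 0.05. Over all 620 tested miRNAs, 23.5% were enriched and 29.2% depleted. In the same 4 members all m7G-RIP libraries were higher than all total RNA libraries, as they were for 29.5% of all tested miRNAs. In miR-99b-3p all were lower, as for 36.5%. The median log2 ratio of m7G-RIP over total RNA was 1.15 over the members and -0.07 over all tested miRNAs. The members are too few, and were chosen with results of these data known, so these counts are a description.

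Levels below are CPM, counts relative to library sizes scaled by the trimmed mean of M values (TMM). Since the amount of RNA recovered is not known, a ratio compares a miRNA with the rest of its libraries. miR-99b-5p, the most abundant member in every library, stood at 31670.4, 25745 and 26903 CPM in total RNA replicates 1 to 3 and at 73962.5, 58386 and 54524 CPM in m7G-RIP replicates 1 to 3. All m7G-RIP libraries were higher than all total RNA libraries, with replicate 1 the highest of both groups. Means were 28106 ± 3140.5 and 62291 ± 10291 CPM (SD, n = 3), and the log2 ratio was 1.15 (95% interval 0.83 to 1.46, SE 0.138, edgeR adjusted p = 0.000121). Among all tested miRNAs it moved from rank 7 to rank 4 by level, and 73.9% of them had a lower log2 ratio.

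miR-99b-3p, the other arm of that hairpin, stood at 1079 CPM, 1005 CPM and 1185 CPM in total RNA and at 532, 564 and 674 CPM in m7G-RIP. It was the member whose m7G-RIP libraries all lay below total RNA. Means were 1089.9 ± 90.6 and 590.04 ± 74.4 CPM (SD, n = 3), and the log2 ratio was -0.89 (95% interval -1.18 to -0.59, SE 0.131, edgeR adjusted p = 0.000462). The change was 1.85-fold, so a threshold of at least 2-fold would leave no depleted member. Its size depended on scaling, since with library size alone, where the median of all tested miRNAs shifted by 0.55, the log2 ratio was -0.33 and still past the threshold.

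let-7e-5p, the let-7 family member of the cluster, stood at 4420.2, 4678 and 5548 CPM in total RNA and at 20074, 22007 and 27124 CPM in m7G-RIP. The lowest m7G-RIP library was far above the highest total RNA library. Means were 4882 ± 591 and 23069 ± 3643 CPM (SD, n = 3), and the log2 ratio was 2.24 (95% interval 1.91 to 2.57, SE 0.144, edgeR adjusted p = 2.36e-06). It moved from rank 25 to rank 9 by level, and 90.3% of tested miRNAs had a lower log2 ratio.

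miR-125a-5p stood at 4869, 4530.3 and 5319.7 CPM in total RNA and at 5616, 7323 and 8229 CPM in m7G-RIP. The groups did not overlap, but m7G-RIP replicate 1 lay close to the highest total RNA library. Means were 4906 ± 396 and 7056 ± 1327 CPM (SD, n = 3), and the log2 ratio was 0.52 (95% interval 0.19 to 0.86, SE 0.146, edgeR adjusted p = 0.0148). This was the smallest change among the members, and the call was lost under several settings. Without m7G-RIP replicate 2 its log2 ratio was 0.33 (edgeR adjusted p = 0.161), without m7G-RIP replicate 3 it was 0.17 (edgeR adjusted p = 0.29), and with no filter on low counts it was 0.24 (edgeR adjusted p = 0.13). m7G-RIP replicate 2 also held the most reads of the muscle markers, with 260 counts of miR-1-3p against 66 and 2 in the other m7G-RIP libraries and 114 counts of miR-133a-3p against 0 in both. The log2 ratio of miR-125a-5p was lower without m7G-RIP replicate 3, which held 2 and 0 counts of these markers, than without m7G-RIP replicate 2. The part of these reads in the result was not tested.

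miR-125a-3p was the least abundant member in total RNA, at 131, 123 and 159.6 CPM, and stood at 601, 679 and 676 CPM in m7G-RIP. Replicates of m7G-RIP lay close together and well above every total RNA library. Means were 138 ± 19.4 and 652 ± 44.1 CPM (SD, n = 3), and the log2 ratio was 2.24 (95% interval 1.90 to 2.58, SE 0.151, edgeR adjusted p = 2.70e-06). It moved from rank 140 to rank 63 by level, and 90.5% of tested miRNAs had a lower log2 ratio.

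**Figure D1:**
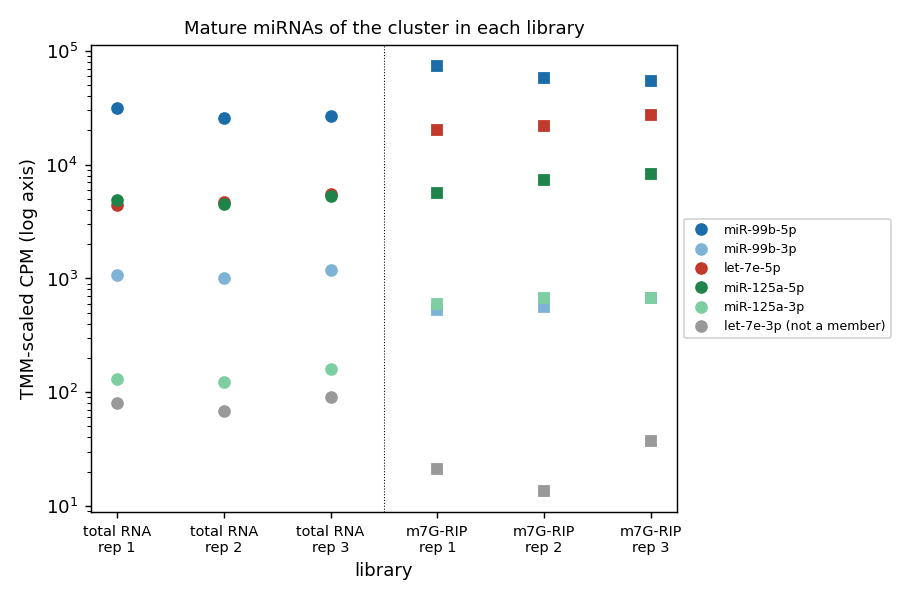
TMM-scaled CPM (log axis) of the 5 members and of let-7e-3p, which is not a member, in each of the 3 total RNA libraries (circles) and 3 m7G-RIP libraries (squares). miR-99b-3p and let-7e-3p are lower in every m7G-RIP library and the other miRNAs are higher in every one.

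The order of the members by CPM differed between the groups. In total RNA miR-99b-5p was followed by miR-125a-5p (4906 ± 396 CPM) and let-7e-5p (4882 ± 591 CPM), whose levels overlapped, and then by miR-99b-3p and miR-125a-3p. In m7G-RIP let-7e-5p lay above miR-125a-5p in all 3 libraries. miR-125a-3p (652 ± 44.1 CPM) and miR-99b-3p (590.04 ± 74.4 CPM) came last there, at levels that overlapped across libraries. Within each m7G-RIP library miR-125a-3p was the higher of them, though barely so in replicate 3 (2525 against 2518 counts).

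**Figure D2:**
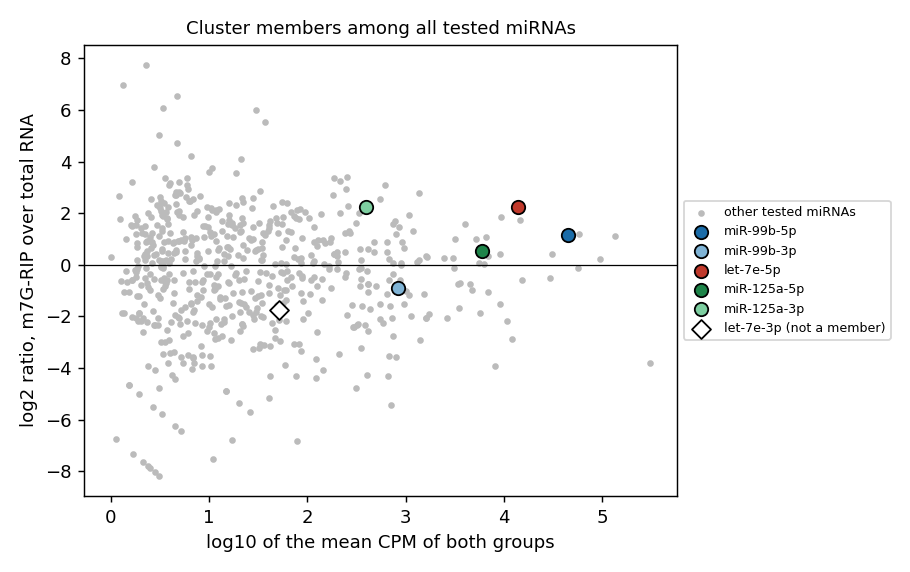
Log2 ratio of m7G-RIP over total RNA (vertical axis) against the log10 of the mean CPM of both groups (horizontal axis) for the 620 tested miRNAs, with the 5 members as coloured circles and let-7e-3p as an open diamond. let-7e-5p and miR-125a-3p share a log2 ratio of 2.24 at levels far apart, and miR-99b-3p lies below 0.

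The cluster as a whole took a larger share of the m7G-RIP libraries. Its 5 members made up 3.48%, 2.96% and 3.25% of the counts of the total RNA libraries and 12.9%, 10.3% and 11.0% of those of the m7G-RIP libraries. The groups did not overlap, and the means were 3.23% ± 0.259 and 11.4% ± 1.38 (SD, n = 3). These are shares of raw counts, and they move with every other miRNA of the library, among them miR-21-5p, which went from 445485 to 490260 RPM in total RNA to 48319 to 50065 in m7G-RIP. miR-99b-5p alone made up 2.32% of total RNA and 7.59% of m7G-RIP counts.

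Within the cluster the make-up also differed. let-7e-5p took 12.5% ± 1.89 of the members' counts in total RNA and 24.8% ± 4.91 in m7G-RIP (SD, n = 3). miR-125a-5p went from 12.6% ± 1.03 to 7.61% ± 1.81 and miR-99b-3p from 2.79% ± 0.235 to 0.634% ± 0.105. miR-125a-3p went from 0.353% ± 0.0504 to 0.700% ± 0.0906. For miR-99b-5p the shares overlapped, at 75.1%, 71.4% and 68.8% in total RNA and 73.4%, 65.6% and 59.8% in m7G-RIP.

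**Figure D3:**
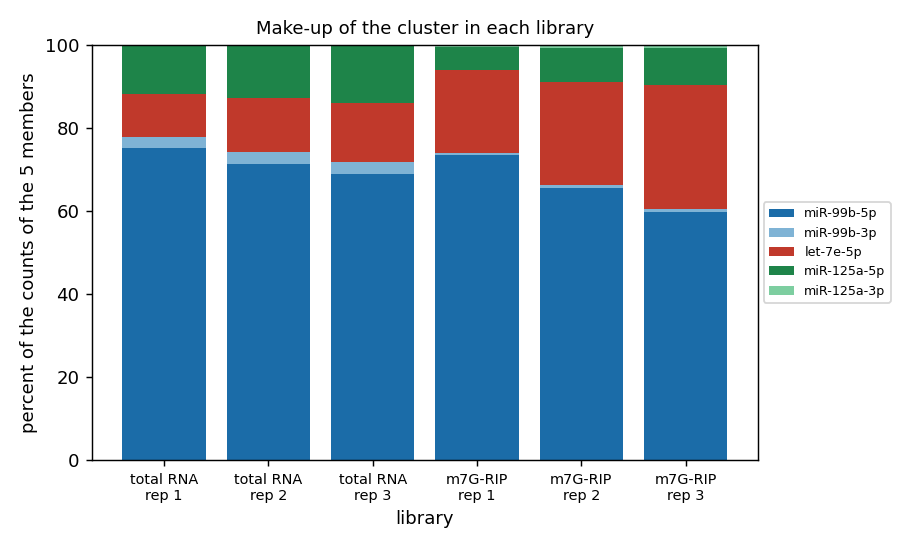
Percent of the summed counts of the 5 members taken by each member in each library (bars stack to 100%). let-7e-5p (red) averages 12.5% in total RNA and 24.8% in m7G-RIP, while miR-99b-5p (dark blue) is the largest share in all 6 libraries.

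The second comparison asked whether miRNAs cut from the same primary transcript were recovered alike. It used the count ratio of a pair of members within a library, which needs no scaling between libraries, and the difference of its log2 value between m7G-RIP and total RNA. The ratio did not overlap between the groups for 9 of the 10 pairs of members. Over all pairs of tested miRNAs 59.0% did not overlap, with a median absolute difference of 2.18 on the log2 scale. For each of the 9 pairs the exact permutation test (two-sided) gave p = 0.1 (adjusted p = 0.111 over the 10 pairs). With 3 libraries per group no smaller p is possible, so no pair can pass 0.05 in this design.

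The exception was let-7e-5p with miR-125a-3p, which lie on different hairpins and on different arms. There were 33.9, 38.1 and 34.8 counts of let-7e-5p for each count of miR-125a-3p in total RNA and 33.4, 32.4 and 40.1 in m7G-RIP. These values overlapped, and the log2 difference was -0.01 (SE 0.109, n = 3 per group, exact permutation p = 0.9). The p does not show that both were recovered alike.

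The largest differences involved miR-99b-3p. There were 0.121, 0.122 and 0.135 counts of miR-125a-3p for each count of miR-99b-3p in total RNA and 1.13, 1.20 and 1.00 in m7G-RIP, a log2 difference of 3.14 (SE 0.0916). For let-7e-5p over miR-99b-3p the ratio was 4.09, 4.66 and 4.68 in total RNA and 37.7, 39.0 and 40.2 in m7G-RIP, a log2 difference of 3.12 (SE 0.0686). These ratios were 8.81 and 8.72 times as high in m7G-RIP, with little spread between the libraries of a group. The log2 difference for miR-125a-5p over miR-99b-3p was 1.40 (SE 0.0889).

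let-7e-5p and miR-125a-5p, the 5p arms of neighbouring hairpins, had near-equal counts in total RNA, with ratios of 0.908, 1.03 and 1.04. In m7G-RIP the ratios were 3.57, 3.01 and 3.30, a log2 difference of 1.73 (SE 0.0969). let-7e-5p also gained on miR-99b-5p, with ratios of 0.140, 0.182 and 0.206 in total RNA and 0.271, 0.377 and 0.497 in m7G-RIP, a log2 difference of 1.09 (SE 0.302). All 3 m7G-RIP ratios lay above all total RNA ratios in both pairs. The smallest difference among the pairs that did not overlap was that of miR-99b-5p over miR-125a-5p, at 0.63 (SE 0.314), and without m7G-RIP replicate 1 it was 0.35.

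The arms of each hairpin were compared in the same way, with let-7e-3p included. The 5p to 3p count ratio did not overlap between the groups for 3 of 3 hairpins (exact permutation p = 0.1 each), against 57.6% of the 139 hairpins with both arms tested, whose median absolute log2 difference was 1.74. For miR-99b the ratio was 29.3, 25.6 and 22.7 in total RNA and 139, 104 and 80.9 in m7G-RIP, a log2 difference of 2.03 (SE 0.250). The 5p arm, dominant in total RNA, was more so in m7G-RIP, and 59.7% of hairpins had a smaller absolute difference.

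In the let-7e hairpin the shift went the same way and was larger. let-7e-3p had 717, 571 and 684 counts in total RNA and 71, 43 and 138 in m7G-RIP. Its log2 ratio was -1.74 (SE 0.357 and edgeR adjusted p = 0.00307). The 5p to 3p ratio was 54.6, 68.9 and 61.7 in total RNA and 959.8, 1630.3 and 734 in m7G-RIP, a log2 difference of 4.08 (SE 0.348). Of the 139 hairpins, 86.3% had a smaller absolute difference.

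In the miR-125a hairpin the shift went the other way. There were 37.3, 36.9 and 33.3 counts of miR-125a-5p for each count of miR-125a-3p in total RNA and 9.35, 10.8 and 12.2 in m7G-RIP, a log2 difference of -1.74 (SE 0.122). The 5p arm stayed the more abundant arm in all 6 libraries. Of the hairpins, 48.9% had a smaller absolute difference.

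The third comparison set the members beside the miRNAs of the paralogous clusters, miR-99a with let-7c and miR-125b-2 on chromosome 21 and miR-100 with let-7a-2 and miR-125b-1 on chromosome 11. The sequences of the paralogues of the 5p arms are shown, seed in capitals, because they share their seeds with the members.
miR-99a-5p: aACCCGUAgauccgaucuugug
miR-100-5p: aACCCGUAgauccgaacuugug
let-7c-5p: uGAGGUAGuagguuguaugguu
let-7a-5p: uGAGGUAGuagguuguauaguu
miR-125b-5p: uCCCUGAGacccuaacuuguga
With the member's base first and positions counted from 1 at the 5′ end, miR-99b-5p differs from miR-99a-5p by C1A, A11U, C16U and C21U and from miR-100-5p by C1A, A11U, C16A and C21U. let-7e-5p differs from let-7a-5p by G9U alone and from let-7c-5p by G9U and A19G. miR-125a-5p and miR-125b-5p share their first 13 bases and differ by 3 edits. let-7a-5p is encoded by 3 hairpins, on chromosomes 9, 11 and 22, and miR-125b-5p by 2, so their counts cannot be assigned to a single cluster.

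Of the 11 mature miRNAs listed for the paralogous clusters, 9 were tested, and 3 of these were enriched (let-7a-5p, let-7c-5p and miR-125b-1-3p) and 3 depleted (miR-99a-5p, miR-125b-5p and miR-125b-2-3p). Over all 620 tested miRNAs the shares were 23.5% enriched and 29.2% depleted. The median log2 ratio of the 9 was 0.22. miR-99a-3p and miR-100-3p had 0 to 10 counts in every library and were not tested. let-7c-3p, at 1.21 (edgeR adjusted p = 0.418), and let-7a-2-3p, at -0.05 (edgeR adjusted p = 0.967), rest on 0 to 99 counts per library.

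Members and paralogues of the same seed family went apart most in the miR-99 family. miR-99a-5p stood at 2679, 2573 and 2585 CPM in total RNA and 609, 762 and 497 CPM in m7G-RIP. Its log2 ratio was -2.07 (SE 0.158 and edgeR adjusted p = 5.77e-06), against 1.15 for miR-99b-5p. There were 11.8, 10.0 and 10.4 counts of miR-99b-5p for each count of miR-99a-5p in total RNA and 121, 76.7 and 109.7 in m7G-RIP. The groups lay far apart, and the within-library log2 difference was 3.23 (SE 0.214, n = 3 per group, exact permutation p = 0.1, adjusted p = 0.114 over 8 pairs). This is a 9.40-fold difference between miRNAs that share their seed and differ at 4 positions. miR-99a-5p differs by a single base from miR-100-5p, which was far more abundant in every library, and the alignment allowed a single mismatch. Whether miR-100-5p reads were counted as miR-99a-5p was not tested.

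miR-100-5p, the more abundant relative, was not called in either direction. It stood at 80909, 89021 and 95058 CPM in total RNA and at 86763, 133278 and 87944 CPM in m7G-RIP. Its log2 ratio was 0.22 (SE 0.167 and edgeR adjusted p = 0.301). The groups overlapped, with m7G-RIP replicate 2 apart from the other libraries, and without that library the log2 ratio was -0.19. Relative to it, miR-99b-5p was higher in m7G-RIP by 0.95 (SE 0.316) within libraries.

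In the miR-125 family the member and its paralogue were called in opposite directions. miR-125b-5p stood at 4494, 4282 and 4016 CPM in total RNA and 2156, 2835 and 2726 CPM in m7G-RIP. Its log2 ratio was -0.73 (SE 0.125 and edgeR adjusted p = 0.00108), against 0.52 for miR-125a-5p. With library size alone it was -0.18 (edgeR adjusted p = 0.16). The count ratio of miR-125a-5p to miR-125b-5p does not depend on scaling. It was 1.08, 1.06 and 1.32 in total RNA and 2.60, 2.58 and 3.02 in m7G-RIP, a log2 difference of 1.25 (SE 0.126).

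let-7e-5p had a higher log2 ratio than both let-7 paralogues. The log2 ratios of let-7c-5p and let-7a-5p were both 1.19 (edgeR adjusted p = 0.000113 and 0.000266). There were 0.139, 0.160 and 0.121 counts of let-7e-5p for each count of let-7a-5p in total RNA and 0.249, 0.268 and 0.336 in m7G-RIP, a log2 difference of 1.02 (SE 0.175). Against let-7c-5p the log2 difference was 1.03 (SE 0.135). let-7a-5p was thus several times as abundant as let-7e-5p and differs from it by a single base, and the alignment allowed a single mismatch. Whether let-7a-5p reads were counted as let-7e-5p was not tested.

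Among the 8 other let-7 5p miRNAs (let-7a, b, c, d, f, g, i and miR-98), 6 were enriched and 0 depleted by edgeR (0 also with p unadjusted and by DESeq2 and limma-voom). The shares over all tested miRNAs were 23.5% and 29.2%. The median log2 ratio of the 8 was 0.50, with a range of -0.13 to 1.83. let-7i-5p, at -0.13, was not called (edgeR adjusted p = 0.238). All its m7G-RIP libraries still lay below all its total RNA libraries, as for 36.5% of all tested miRNAs. The highest log2 ratio of the 8, that of let-7b-5p at 1.83, lay below that of let-7e-5p at 2.24. The count of enriched miRNAs in this family was 3 with no filter on low counts and 3 when m7G-RIP replicate 1, 2 or 3 was left out, each time with 1 depleted, and it was 8 with library size alone, while let-7e-5p was enriched in all of these fits. The median of all tested miRNAs shifted in them too, by -0.72 with no filter, -0.33 to -0.17 without an m7G-RIP library and 0.55 with library size alone.

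Of the 3p arms, miR-125a-3p does not share a seed with either miR-125b 3p arm. Its ratio to miR-125b-1-3p was 0.380, 0.366 and 0.504 in total RNA and 1.04, 1.03 and 1.09 in m7G-RIP, a log2 difference of 1.36 (SE 0.148). miR-125b-1-3p was itself enriched by 0.90 on the log2 scale (edgeR adjusted p = 0.000211). miR-125b-2-3p was depleted, with 420 to 478 counts in total RNA and 18 to 64 in m7G-RIP (95% interval of the log2 ratio -2.98 to -1.02, edgeR adjusted p = 0.00386). miR-125a-3p gained 4.44 (SE 0.536) on miR-125b-2-3p within libraries. For miR-99b-3p no ratio to miR-99a-3p could be read, as miR-99a-3p had 5, 10 and 0 counts in total RNA and 0, 10 and 0 in m7G-RIP. In all, 7 of the 8 pairs of a member and a paralogue did not overlap between the groups, against 59.0% of all pairs of tested miRNAs. In each of the 7 the ratio of member to paralogue was higher in m7G-RIP than in total RNA.

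**Figure D4:**
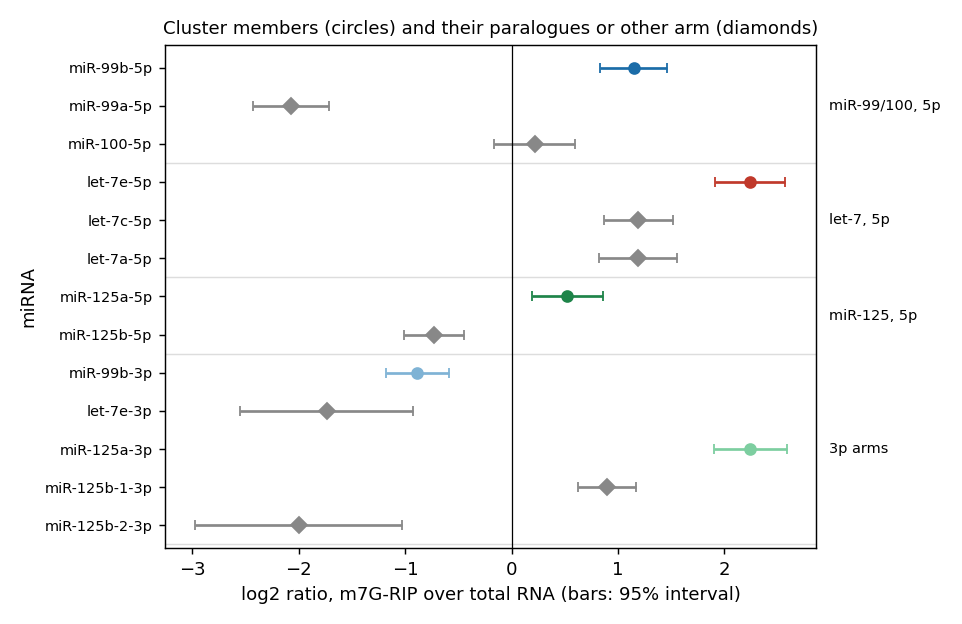
Log2 ratio of m7G-RIP over total RNA with its 95% interval (edgeR, 3 libraries per group) for the members (coloured circles), their tested paralogues and let-7e-3p (grey diamonds), grouped by family. miR-99b-5p at 1.15 and miR-99a-5p at -2.07 lie on opposite sides of 0, as do miR-125a-5p at 0.52 and miR-125b-5p at -0.73.

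The G content of the mature sequences was set beside these values because the modified base is a guanosine. Of the tested miRNAs, 557 of 620 (89.8%) had a mature sequence. Across these miRNAs, which share the same 6 libraries and are not independent, percent G and log2 ratio had a Pearson r of 0.41 and a Spearman rho of 0.44. let-7e-5p and miR-125a-3p, the members with the highest log2 ratios, each hold 9 G in 22 bases (40.9%), more than 79.5% of the miRNAs with a sequence. miR-125a-5p holds 16.7% G, miR-99b-5p 22.7%, let-7e-3p 13.6% and the depleted miR-99b-3p 36.4%.

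In 80 of 116 hairpins whose arms differ in G content (69.0%), the G-richer arm was also the arm of higher log2 ratio. let-7e (40.9% against 13.6%, 5p higher) and miR-125a (40.9% against 16.7%, 3p higher) were among these. The miR-99b hairpin went the other way, with the 22.7% G arm enriched and the 36.4% G arm depleted. The paralogues miR-99b-5p, miR-99a-5p and miR-100-5p each hold 22.7% G at log2 ratios of 1.15, -2.07 and 0.22, and let-7e-5p and let-7c-5p each hold 40.9% G at 2.24 and 1.19.

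**Figure D5:**
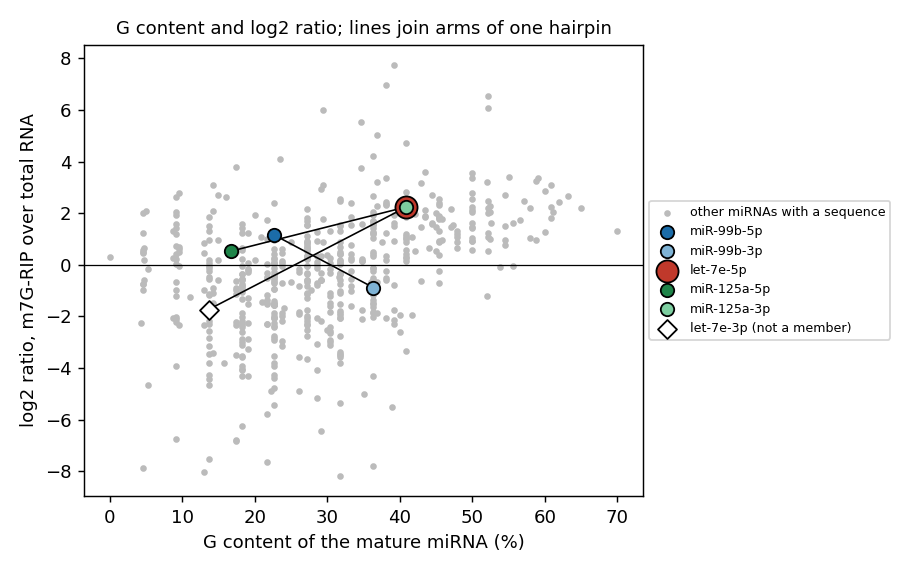
Log2 ratio of m7G-RIP over total RNA against percent G of the mature miRNA for the 557 tested miRNAs with a sequence; black lines join the 2 arms of each hairpin of the cluster. The let-7e-5p and miR-125a-3p points coincide at 40.9% G (the larger red circle lies under the light green one), and the miR-99b line slopes downwards.

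Short G-containing motifs were searched on the RNA strand of the mature sequences only. GGG was present in 199 of the 557 sequences (35.7%), with a median log2 ratio of 0.87 against -0.55 in those without it. Of the members it occurs in miR-99b-3p and miR-125a-3p, which were depleted and enriched. GAGGU, the start of the let-7 seed, occurs in let-7e-5p and, at another position, in miR-125a-3p, and was chosen after the values were seen. It was present in 22 of 557 sequences (3.95%), 11 of which have the let-7 seed, with a median log2 ratio of 1.53 against -0.12, and 15 were enriched by edgeR. The 11 without the let-7 seed had a median of 2.20, with 7 enriched. Of all tested miRNAs 23.5% were enriched. let-7e-5p and miR-125a-3p are counted in the 22 and the 15, and miR-125a-3p also in the 11 and the 7. Since the motif was taken from these members, the counts are a description. A match is a description of the sequence and does not mark a modified site.

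Other miRNA clusters were also uneven. Among 7 clusters of hairpins at most 10000 bases apart with at least 5 tested mature miRNAs, the SD of the log2 ratios was 1.63 for the 6 tested mature miRNAs of this cluster (let-7e-3p included), the 5th largest. It ranged from 1.22 in MIR450B to MIR424 on chromosome X to 2.68 in MIR17 to MIR92A1 on chromosome 13. The spread of 3.98 between the lowest and highest log2 ratio here was therefore not large among these clusters. This cluster had 4 enriched and 2 depleted miRNAs, and MIR17 to MIR92A1 had 1 enriched and 5 depleted.

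The miRNAs, other than the members, with the most similar pattern were found by the Euclidean distance of log2 CPM over the 6 libraries, each centred on its mean, over 354 non-member miRNAs whose count was 10 or more in each library. By the same measure let-7e-5p and miR-125a-3p lay 0.268 from each other, and the other 9 pairs of members lay 1.09 to 3.85 apart. Of the non-members, miR-654-5p was nearest to both let-7e-5p (distance 0.306) and miR-125a-3p (0.182), with a log2 ratio of 2.30. The next non-members were miR-320c for let-7e-5p (0.421) and miR-320d for miR-125a-3p (0.347). miR-99b-5p was nearest to miR-7704 (0.233) and miR-219a-1-3p (0.336), and miR-99b-3p to miR-107 (0.325) and miR-148b-3p (0.381). miR-125a-5p was nearest to miR-98-5p (0.313) and let-7d-5p (0.315), both of the let-7 family. None of the 2 nearest non-members of any member belonged to the cluster's paralogues.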

How the data were processed

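Values were deposited as raw read counts for each mature miRNA. Per the authors' methods, reads of NEBNext small RNA libraries lost their adaptors in Trimmomatic, were mapped over their full length by STAR to GRCh38 (a single mismatch, multi-mapping allowed) and were counted with featureCounts on miRBase 22. The submitters' processing notes name Bowtie2 instead. How multi-mapping reads were counted is not given in the sources used here. Reads carry no molecular identifiers.

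Groups were taken from the sample titles. Counts were tested across the whole table with edgeR 4.0.16 in R 4.3.3 (TMM scaling, default expression filter by group, robust quasi-likelihood F test, no replicate block), adjusted by the Benjamini-Hochberg method, with a threshold of 0.05. Ratios within libraries used a pseudocount of 0.5 and exact two-sided permutation tests over libraries (scipy 1.17.1), and ratios printed per library are of raw counts. The depth limits precision for miRNAs with few counts. The code was tested on simulated counts. DESeq2 1.42.0 and limma-voom (limma 3.58.1) were alternatives, beside scaling, filters, pseudocounts of 0 and 5, fits that left out each library and a replicate block.

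The miRNAs named were the members, let-7e-3p, the paralogues, the let-7 5p family, the markers and the 2 nearest patterns per member among non-members. miR-654-5p and the other nearest patterns follow from that rule. The MIR17 and MIR450B clusters were named as extremes after values were seen. The members and lists were chosen with earlier results of these data known. Sequences came from RefSeq tables of GRCh38.p14.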

Additional observations from a re-analysis of the deposited data

How the results depend on the processing

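With library size alone, the median log2 ratio over the tested miRNAs shifted by 0.55, and with library sizes that left out the 10 most abundant miRNAs it shifted by 0.45. The shift was -0.72 with no filter on low counts. It was -0.33 to -0.17 without an m7G-RIP library and 0.17 to 0.25 without a total RNA library. The direction and call of miR-99b-5p, miR-99b-3p, let-7e-5p and miR-125a-3p held under every alternative run on scaling, filter, tool and libraries, with log2 ratios of 0.88 to 1.71, -1.16 to -0.33, 1.96 to 2.79 and 1.97 to 2.80 (0.80 to 1.23, -1.21 to -0.90, 1.89 to 2.26 and 2.00 to 2.29 leaving out 1 library). The number of enriched members was 3 to 4. With at least a 2-fold change required, 0 members were depleted. miR-125a-5p lost its call with no filter on low counts (log2 ratio 0.24), and leaving out 1 library gave 0.17 to 0.50, without a call when m7G-RIP replicate 2 or 3 was left out. In these fits 1469 miRNAs were tested with no filter, and 778 and 756 without m7G-RIP replicate 2 and 3, against 620. Their medians shifted by -0.72, -0.26 and -0.33. The cause of the lost calls was not tested. Of the uncalled paralogues, miR-100-5p was -0.064 with no filter and -0.19 to 0.19 leaving out 1 library, and let-7a-2-3p was 0.49 with library size alone, 0.41 without the 10 most abundant miRNAs and -0.94 to 0.31 leaving out 1 library. Leaving out 1 library gave -0.11 to 0.044 for let-7e-5p over miR-125a-3p and -1.94 to 0.54 for miR-99b-3p over miR-99a-3p. The log2 ratio of miR-100-5p was 0.76 and called with library size alone and 0.66 and called without the 10 most abundant miRNAs.

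Same-numbered libraries of the groups had correlations of their deviations of -0.04, -0.10 and 0.06, so the numbers were not taken to pair them. With a replicate block, 4 members were enriched and 1 depleted, as without it, at log2 ratios of 1.14 for miR-99b-5p, -0.89 for miR-99b-3p, 2.24 for let-7e-5p, 0.51 for miR-125a-5p and 2.25 for miR-125a-3p. The paired sign-flip test of 3 pairs cannot give p under 0.25.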
